A study of Mus musculus with 8 samples.

Results

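The genes of cholesterol synthesis and of its control by SREBP2 were followed in liver RNA of mice with and without hepatic Foxo1. They were taken as a list of 26 genes by symbol: the regulators Srebf2, Scap, Insig1 and Insig2, 19 enzymes, and 3 genes of sterol transfer and receptor turnover. Of the 26, 25 were matched to a row of a table of 25690 genes, and Mvd was not analysed here. Mylip lay below the filter of a mean of 1 FPKM (fragments per kilobase of transcript, scaled by the mapped fragments of the library), so 24 were tested among 10250 genes.

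The series has 4 wildtype control libraries, numbered 1, 3, 10 and 12 by their titles. The other 4, numbered 3, 9, 10 and 11, are from mice whose FOXO1 was knocked out in the liver. The tissue of all 8 is liver, and no other allele or treatment is named for either group. The sources used here do not give the driver of the deletion, the strain, age, sex, feeding state or hour of collection. The labels do not state that each library is a separate animal. The p-values then measure only how far these libraries vary, which may be technical.

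Cholesterol is built from acetyl-CoA through mevalonate, farnesyl diphosphate, squalene and lanosterol. SREBP2 is made as a precursor that spans the membrane of the endoplasmic reticulum, bound to SCAP, its escort and a sensor of sterols. When sterols are low, SCAP carries SREBP2 to the Golgi, where proteases release the part that enters the nucleus and raises the synthesis genes; when sterols are high, the INSIG proteins hold the complex back. The liver is a main site of this synthesis, and FoxO1 is a forkhead transcription factor that leaves the nucleus when insulin acts.

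Promoter sequences are shown for the members with the largest changes that have an entry in the RefSeq promoter table (GRCm38.p6), with Hmgcs1 first because it alone holds a match to the sterol regulatory element TCACNCCAC. Each is the 250 bases before the annotated start nearest to that of the gene in GENCODE, written 5′ to 3′ on the strand of the gene. Capitals mark, on either strand, TCACNCCAC, the CCAAT box (CCAAT, bound by NF-Y), the GC box (GGGCGG, bound by Sp1) and the forkhead motif GTAAACA. No capital run below joins matches of different motifs.
Hmgcs1 (chr13:119690101-119690350, plus strand): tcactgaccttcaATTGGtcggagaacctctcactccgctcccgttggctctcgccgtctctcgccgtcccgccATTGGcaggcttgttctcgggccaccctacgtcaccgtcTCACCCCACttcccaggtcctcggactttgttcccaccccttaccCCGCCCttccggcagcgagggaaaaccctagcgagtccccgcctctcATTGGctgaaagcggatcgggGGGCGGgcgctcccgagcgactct
Dhcr7 (chr7:143822917-143823166, plus strand): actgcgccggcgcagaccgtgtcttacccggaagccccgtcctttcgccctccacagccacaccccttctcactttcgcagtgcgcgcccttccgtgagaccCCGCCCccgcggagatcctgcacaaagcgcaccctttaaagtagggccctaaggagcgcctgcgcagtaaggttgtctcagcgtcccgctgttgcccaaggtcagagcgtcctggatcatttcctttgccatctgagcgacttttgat
Cyp51 (chr5:4104698-4104947, minus strand): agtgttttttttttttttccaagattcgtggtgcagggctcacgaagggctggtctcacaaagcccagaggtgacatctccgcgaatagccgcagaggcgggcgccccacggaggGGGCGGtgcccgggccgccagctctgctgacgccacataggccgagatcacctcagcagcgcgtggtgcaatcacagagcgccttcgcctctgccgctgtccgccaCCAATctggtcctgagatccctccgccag
Scap (chr9:110333038-110333287, plus strand): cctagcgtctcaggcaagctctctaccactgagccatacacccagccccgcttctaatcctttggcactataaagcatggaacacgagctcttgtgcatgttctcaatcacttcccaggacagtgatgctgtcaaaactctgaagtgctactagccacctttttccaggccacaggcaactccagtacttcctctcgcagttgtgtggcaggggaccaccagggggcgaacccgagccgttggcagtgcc

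The Hmgcs1 window held 1 sterol regulatory element match, which starts 137 bases before the start, 3 CCAAT boxes and 2 GC boxes. The Cyp51 window held 1 of each box, the Dhcr7 window 1 GC box, and the Scap window no match to any of the 4 motifs. Scap has 2 annotated windows and Dhcr7 3, and these counts cover only those printed. Of the 26 members 22 had an entry in the table, and a member with several annotated starts was counted as holding a motif if any of its windows did. A CCAAT box was held by 19 of the 22 (86.4%), against 41.2% of the 7836 tested genes with an entry and 37.5% of all 27025 genes in the table. A GC box was held by 20 of the 22 (90.9%), against 63.3% of the tested genes and 35.4% of all. The sterol regulatory element was held by Hmgcs1 alone (4.55%, against 1.38% and 1.22%), and the forkhead motif by Aacs alone (4.55%, against 2.87% and 3.54%). A match is a run of letters and says nothing of binding, and a window without one says only that these letters are not in it.

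Depth, estimated from the FPKM of a single fragment, was 26.8 M to 35.1 M fragments per library. Foxo1, the targeted gene, was at 3.01 to 3.81 FPKM in wildtype and 0.212 to 0.375 in knockout libraries and fell by 1.78 on the log2(FPKM + 1) scale used for every change below (SE 0.09, limma adjusted p = 3.62e-05). Several libraries stood apart. Knockouts 3 and 11 had Saa1, an acute phase gene, at 28410 and 33010 FPKM and S100a8, a neutrophil gene, at 31.4 and 77.2, while the other 6 libraries were at most at 572.9 and 3.19. Wildtype 12 had G6pc, the gene of the last step of glucose release, at 26.2 FPKM, against 194 to 228 in the other wildtype libraries and 14.9 to 65.3 in the knockouts.

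Summed FPKM of 8 hepatocyte markers was 20610 to 22500 in wildtype and 16180 to 20790 in knockout libraries. It was 52.8 to 71.7 and 41.9 to 69.8 for 6 Kupffer cell markers, and 49.3 to 65.0 and 27.5 to 49.3 for 6 sinusoidal endothelial markers. For 6 stellate cell markers it was 57.9 to 69.8 and 28.2 to 63.8. It was lowest in knockouts 3 and 11 (28.2 and 34.1), and knockout 10 (50.4) was below the wildtype range too. It was 11.3 to 16.7 and 15.6 to 24.7 for 6 cholangiocyte markers, and 2.56 to 5.80 and 3.56 to 136.5 for 8 neutrophil and lymphocyte markers. Most of the 136.5, in knockout 11, was S100a8 and S100a9, at 77.2 and 57.5 FPKM. The lymphocyte markers Cd3e, Cd3g, Cd79a and Ms4a1 were at 0.566 FPKM or less in every library. Such a sum follows its highest members. Most of the cholangiocyte sum was Spp1 (10.4 to 22.9 FPKM) and most of the stellate cell sum Dcn (18.7 to 47.1). Within the hepatocyte list Hnf4a rose (log2 change 0.43, limma adjusted p = 0.049) and Cyp2e1 fell (-0.60, limma adjusted p = 0.0318). Markers listed at 0 were Cftr in 3 libraries, Ly6g in 6, Cd3e in 2 and Ms4a1 in 1. The part of these differences in the results was not tested, and in bulk tissue fewer cells of a type and less RNA per cell cannot be told apart.

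Across the list 2 of 24 tested members rose in the knockout liver and 0 fell (limma, Benjamini-Hochberg adjusted p under 0.05). These were Scap, the SREBP escort, and Dhcr7, an enzyme of the last steps. Among all 10250 tested genes 2.70% were higher and 11.7% lower, and a count of 2 among 24 is too small to set against those shares. Of the values themselves, 19 of 24 members (79.2%) had a positive log2 change and 5 a negative one, where 37.7% of all tested genes had a positive change. The median log2 change was 0.37 over the members and -0.08 over all tested genes. Among all tested genes the positive share rose to 51.9% after median-ratio scaling, 49.1% after quantile normalization and 52% with the length trend taken out. The positive share of the members was 83.3% in each of these settings, so the contrast in the unscaled values is wider. With 1 library left out the number of members that rose was 0 without wildtype 1, 1 without wildtype 3, wildtype 10, knockout 3 or knockout 11, and 2 without wildtype 12 or knockout 9. Without knockout 10 it was 7, with Srebf2, Sqle, Cyp51, Nsdhl and Tmem97 beside Scap and Dhcr7. In that setting 275 of 10226 tested genes were higher. Knockout 10 held the lowest knockout value of each of these members but Scap, so leaving it out raises their change by construction. The added calls lend no support.

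**Figure D1:**
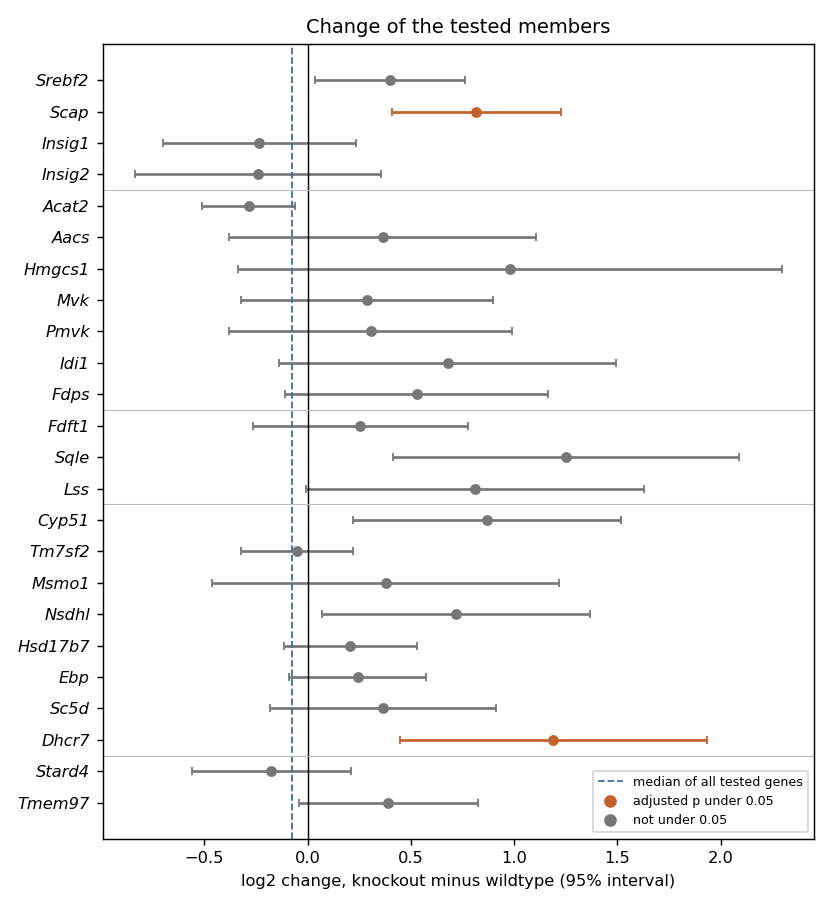
Log2 change of each of the 24 tested members, knockout minus wildtype on the log2(FPKM + 1) scale, with its 95% interval from limma, in the order regulators, enzymes from acetyl-CoA to cholesterol, and sterol transfer. The dashed line is the median of all tested genes (-0.08), and the coloured points are Scap (0.82) and Dhcr7 (1.19), which passed the adjusted threshold.

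Among the regulators Scap stood out. In wildtype 1, 3, 10 and 12 it was at 20.4, 14.8, 21.8 and 26.1 FPKM, and in knockouts 3, 9, 10 and 11 at 47.9, 33.8, 36.4 and 30.6. Every knockout library lay above every wildtype library, a separation that 4.83% of all tested genes showed in this direction and that Scap alone showed among the members. The mean went from 20.8 ± 4.67 (SD, n = 4) to 37.2 ± 7.53, a 1.79-fold higher level, and the log2 change was 0.82 (SE 0.18, 95% interval 0.41 to 1.23, limma adjusted p = 0.0182). Scap (ENSMUSG00000032485) lies on chromosome 9, 110333288 to 110384950, plus strand, in mm10. The test was not passed without wildtype 1 (0.82, limma adjusted p = 0.0531) or without both knockouts 3 and 11 (0.76, limma adjusted p = 0.0598).

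A transcript annotated on the opposite strand, 5830462I19Rik, overlaps 3383 bases of the span of the Scap gene. It was at 1.19 to 2.11 FPKM in wildtype and 1.82 to 3.06 in knockout libraries. Reads of the shared bases cannot be told apart without strand information, and whether those bases lie in exons of Scap was not examined.

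Srebf2, the gene of the transcription factor itself and one of its own targets, was at 4.61, 4.38, 5.15 and 5.93 FPKM in wildtype 1, 3, 10 and 12. It was at 9.36, 6.60, 5.005 and 7.22 in knockouts 3, 9, 10 and 11. Knockout 10 lay inside the wildtype range and the other 3 knockouts above it. The log2 change of 0.40 (SE 0.16, 95% interval 0.04 to 0.76) did not pass (limma adjusted p = 0.132).

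The INSIG genes, whose proteins retain SCAP, had negative values that did not pass. Insig1, known as an SREBP target, was at 73.1, 76.6, 76.0 and 138.1 FPKM in wildtype 1, 3, 10 and 12 and at 88.4, 82.3, 64.3 and 65.4 in knockouts 3, 9, 10 and 11. Its highest library was wildtype 12, above every knockout. The log2 change was -0.23 (SE 0.21, 95% interval -0.70 to 0.23, limma adjusted p = 0.501). Insig2, the paralogue with its own liver promoter under insulin control, was at 193.6, 160.1, 112.7 and 174.3 FPKM in wildtype and at 80.6, 165.7, 121.9 and 190.7 in knockout libraries, in the same order. Knockout 3 was its lowest library, and the other 3 knockouts lay within the wildtype range (-0.24, SE 0.27, limma adjusted p = 0.593).

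**Figure D2:**
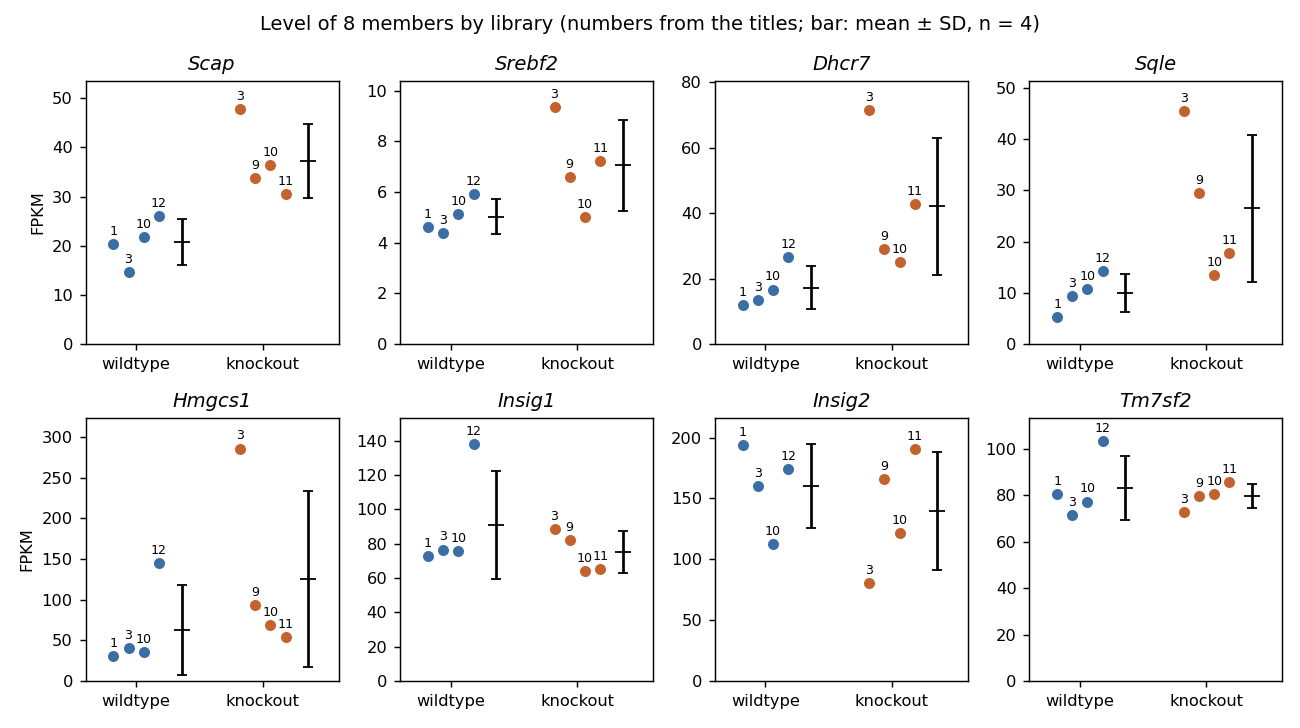
FPKM of 8 members in each library, with the number from the title above each point and the group mean ± SD (n = 4) beside it; axes start at 0. Scap is the member whose groups do not overlap (14.8 to 26.1 against 30.6 to 47.9), wildtype 12 is high for Hmgcs1 (144.8) and Insig1 (138.1), and knockout 3 is high for Hmgcs1 (285.8), Dhcr7 (71.4) and Sqle (45.5).

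Of the 7 tested enzymes from acetyl-CoA to farnesyl diphosphate 0 passed, with a median log2 change of 0.36. Hmgcs1, the synthase that makes HMG-CoA in the cytosol (chromosome 13, 119690379 to 119708260, plus strand, mm10), varied most. In wildtype 1, 3, 10 and 12 it was at 30.6, 40.2, 35.3 and 144.8 FPKM, and in knockouts 3, 9, 10 and 11 at 285.8, 93.0, 69.2 and 54.1. The knockouts all lay above wildtype 1, 3 and 10, and 3 of them lay below wildtype 12. Its span from lowest to highest library was 9.33-fold, and the log2 change of 0.98 had an interval from -0.34 to 2.30 (SE 0.59, limma adjusted p = 0.301). Without wildtype 12 and knockout 3 together the value was 0.98 (limma adjusted p = 0.0441). Those libraries hold the highest value of Hmgcs1 in each group, so leaving them out narrows its spread by construction, and this p lends the change no support.

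Idi1, the isomerase of the 5-carbon units, was at 29.7 to 76.7 FPKM in wildtype libraries, and at 132.9 and 109.8 in knockouts 3 and 9 but 50.7 and 52.3 in knockouts 10 and 11 (log2 change 0.68, SE 0.36, limma adjusted p = 0.246). Fdps, which makes farnesyl diphosphate, had the highest knockout mean of the 25 members, at 142.2 ± 53.3 FPKM in wildtype and 200.7 ± 58.1 in knockout liver (SD, n = 4), and its groups overlapped (0.53, SE 0.28, limma adjusted p = 0.245). The kinases of mevalonate and phosphomevalonate, Mvk and Pmvk, had smaller changes of 0.29 and 0.31 (limma adjusted p = 0.523 and 0.551). Without knockouts 3 and 11 these 2 values were -0.0028 and -0.22.

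Acat2 and Aacs make acetoacetyl-CoA, and neither passed. Acat2, the cytosolic thiolase, was at 45.6 to 61.0 FPKM in wildtype and 41.7 to 46.3 in knockout libraries, with a narrow spread in each group (SD 6.33 and 2.07, n = 4). Its log2 change was -0.28 (SE 0.10, 95% interval -0.51 to -0.06, limma adjusted p = 0.0903). A gene of the same family, Acat3, lies beside it on chromosome 17, and how far reads of Acat2 and Acat3 can be told apart was not examined. Aacs, the acetoacetyl-CoA synthetase gene, was at 4.72 to 10.6 FPKM in wildtype libraries and at 13.9, 6.48, 15.7 and 5.42 in knockouts 3, 9, 10 and 11, so that 2 knockouts were above the wildtype range and 2 inside it. Its log2 change was 0.36 (SE 0.33, 95% interval -0.38 to 1.11, limma adjusted p = 0.510).

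The 3 enzymes from farnesyl diphosphate to lanosterol had a median log2 change of 0.81, the largest of the groups by role, and 0 passed. Sqle, squalene epoxidase, a rate-controlling oxygenase, was at 5.32, 9.41, 10.9 and 14.3 FPKM in wildtype 1, 3, 10 and 12 and at 45.5, 29.5, 13.4 and 17.7 in knockouts 3, 9, 10 and 11. Knockout 10 lay just under wildtype 12, and the other knockouts lay above all wildtype libraries. The means were 9.96 ± 3.71 and 26.5 ± 14.4 (SD, n = 4), a 2.66-fold difference, and the log2 change of 1.25, the largest of the members, had an SE of 0.37, an interval of 0.41 to 2.09 and a limma adjusted p of 0.0531. Sqle passed in 4 alternatives at the same threshold: without knockout 10 (1.51, limma adjusted p = 0.0264), with a mean of at least 5 FPKM (0.0406), with library weights (0.0435), and with genes that have a 0 left out (0.0494). Knockout 10 was the lowest knockout library for Sqle, so leaving that library out raises the value by construction.

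Lss, which closes squalene epoxide into lanosterol, was at 4.07, 7.10, 8.50 and 14.5 FPKM in wildtype and at 25.3, 16.6, 10.8 and 9.46 in knockout libraries. Wildtype 12 was above knockouts 10 and 11 (log2 change 0.81, SE 0.36, limma adjusted p = 0.166). Fdft1, squalene synthase, changed by 0.26 (SE 0.23, limma adjusted p = 0.507), with 25.3 to 44.7 FPKM in wildtype and 27.3 to 59.0 in knockout libraries. Fdft1 overlaps 774 bases of Ctsb on the opposite strand, which was at 63.4 to 90.5 FPKM over the 8 libraries, and without strand information reads of the shared bases cannot be told apart.

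Among the 8 enzymes from lanosterol to cholesterol Dhcr7 passed. It encodes the reductase of the last double bond (chromosome 7, 143823145 to 143848410, plus strand, mm10). In wildtype 1, 3, 10 and 12 it was at 12.01, 13.6, 16.7 and 26.6 FPKM, and in knockouts 3, 9, 10 and 11 at 71.4, 29.0, 25.2 and 42.9. The groups overlapped by a single pair, since knockout 10 lay just under wildtype 12. The means were 17.2 ± 6.55 and 42.1 ± 20.9 (SD, n = 4), a 2.45-fold difference, with a log2 change of 1.19 (SE 0.33, 95% interval 0.45 to 1.93, limma adjusted p = 0.0422). The call was lost without wildtype 1 (limma adjusted p = 0.111), wildtype 3 (0.0995), wildtype 10 (0.0903), knockout 3 (0.0804) or knockout 11 (0.0875), and without both knockouts 3 and 11 the change was 0.68 (limma adjusted p = 0.175). It was lost too with no filter on low values (0.101), with the length trend taken out (0.0509) and with a robust variance model (0.0607).

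Cyp51, the lanosterol demethylase, was at 19.99, 26.4, 32.1 and 43.4 FPKM in wildtype and at 77.1, 70.7, 34.1 and 46.8 in knockout libraries. Knockout 10 was again the library inside the wildtype range (log2 change 0.87, SE 0.29, 95% interval 0.22 to 1.52, limma adjusted p = 0.0761). Nsdhl, a sterol dehydrogenase of the demethylation at carbon 4, had the same arrangement, with 18.3 to 43.2 FPKM in wildtype and 64.7, 49.9, 28.1 and 51.8 in the knockouts (0.72, SE 0.29, limma adjusted p = 0.128). Msmo1, the oxidase of that demethylation, and Sc5d, the desaturase before the Dhcr7 step, had their second highest library in wildtype 12, at 193.0 and 181.5 FPKM. Their log2 changes were 0.38 and 0.36 (SE 0.37 and 0.24, limma adjusted p = 0.547 and 0.353).

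Hsd17b7 and Ebp, a sterol reductase and isomerase, had changes of 0.21 and 0.24 with short intervals, -0.11 to 0.53 and -0.09 to 0.58 (limma adjusted p = 0.368 and 0.307). Tm7sf2, a sterol reductase, had the smallest span from lowest to highest library of the tested members (1.44-fold), with 71.6 to 103.4 FPKM in wildtype and 72.8 to 85.8 in knockout libraries. Its log2 change of -0.05 (95% interval -0.32 to 0.22, limma adjusted p = 0.823) was 0.06, 0.14 and 0.02 with median-ratio scaling, quantile normalization and the length trend taken out.

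Among the genes of sterol transfer and turnover, Tmem97, an endoplasmic reticulum protein that binds the cholesterol transporter NPC1, was at 42.2 to 61.8 FPKM in wildtype libraries. It was at 88.8, 64.1, 48.1 and 81.8 in knockouts 3, 9, 10 and 11 (log2 change 0.39, SE 0.19, limma adjusted p = 0.208). Stard4, a cytosolic sterol carrier, was at 21.4 to 30.9 and 16.1 to 27.7 FPKM (-0.18, SE 0.17, limma adjusted p = 0.541). Mylip, whose protein IDOL marks lipoprotein receptors for breakdown and which oxysterols raise through LXR, was low, at 0.62 to 1.18 FPKM in wildtype and 0.51 to 0.86 in knockout libraries, and was not tested.

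The members also differed from library to library within each group. Wildtype 12 and knockout 3 were known to be high for these genes when the list was taken up, so the shares that follow describe the libraries and test nothing. Wildtype 12 held the highest wildtype value of 21 of 24 members (87.5%), against 43.5% of all tested genes, and wildtype 1 the lowest of 16 (66.7%, against 24.7%). The exceptions to the first count were Insig2, Stard4 and Aacs. Knockout 3 held the highest knockout value of 18 of 24 members (75.0%, against 16.3% of all tested genes), and knockout 10 the lowest of 14 (58.3%, against 12.5%). Over all 8 libraries knockout 3 was highest for 17 members (70.8%, against 10.1%) and wildtype 1 lowest for 14 (58.3%, against 8.33%). The median deviation of the members from the wildtype mean was -0.38, -0.13, 0.03 and 0.55 in wildtype 1, 3, 10 and 12, and 0.91, 0.31, 0.03 and 0.26 in knockouts 3, 9, 10 and 11.

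**Figure D3:**
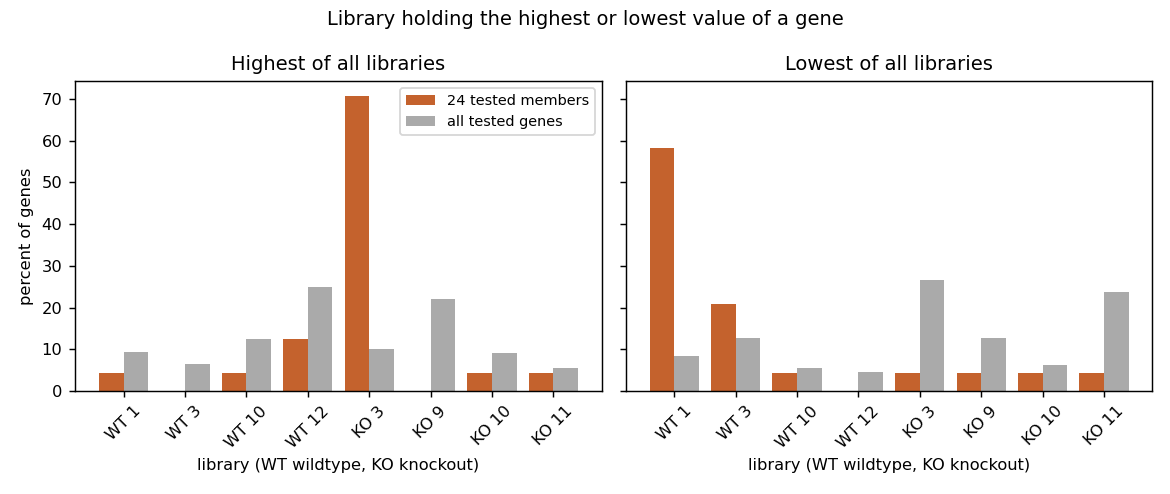
Percent of the 24 tested members (orange) and of all tested genes (grey) for which each library held the highest (left) or the lowest (right) of the 8 FPKM values. Knockout 3 is the highest library of 70.8% of the members and 10.1% of all genes, and wildtype 1 the lowest of 58.3% and 8.33%.

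Knockout 3 and wildtype 12, the libraries high in their groups, were not alike across the list. Knockout 3 was above wildtype 12 for 19 of 24 members, by 3.19-fold for Sqle, 2.68-fold for Dhcr7, 1.97-fold for Hmgcs1 and 1.84-fold for Scap. The other 5 were lower in knockout 3 than in wildtype 12: Insig2 at 0.46 of its level, Insig1 at 0.64, Acat2 and Tm7sf2 at 0.70 each, and Stard4 at 0.83. Knockout 10 lay below wildtype 12 for 21 of 24 members, and the exceptions were Scap, Aacs and Stard4. Knockouts 9 and 11 lay above wildtype 12 for 10 and 11 members.

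**Figure D4:**
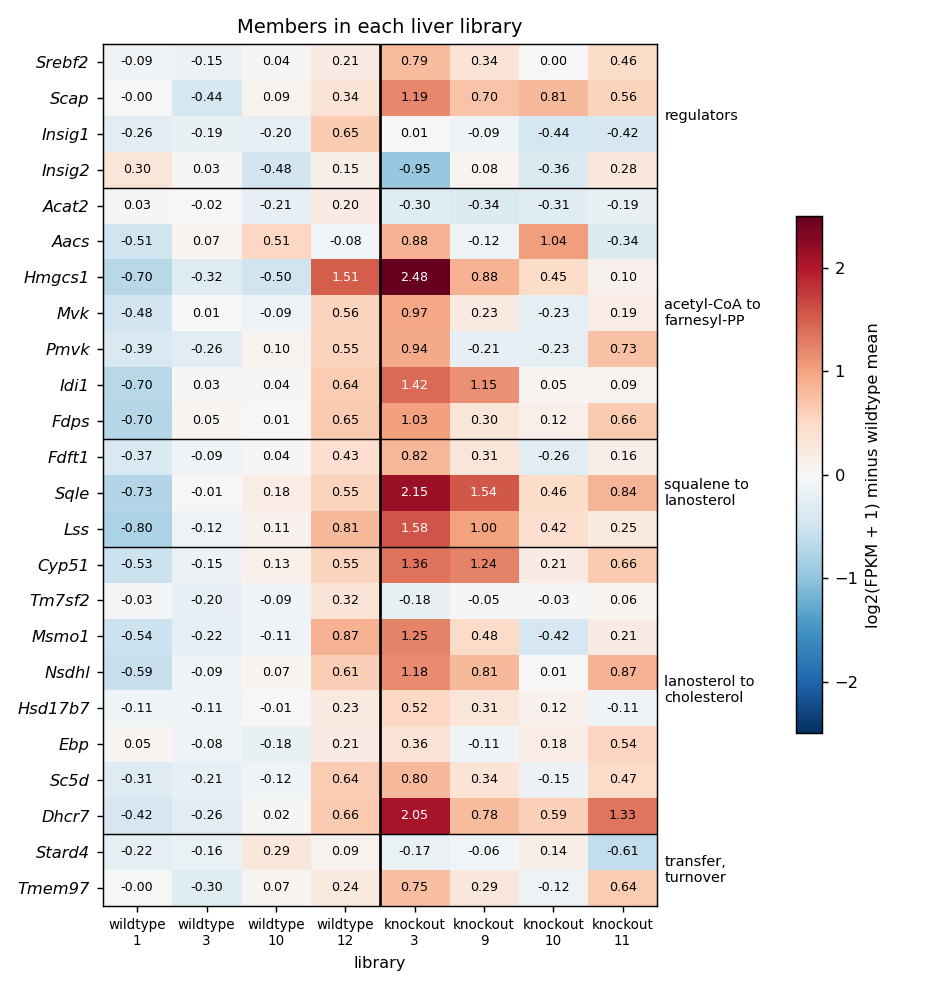
Each tested member (row, by role) in each library (column) as log2(FPKM + 1) minus the mean of the 4 wildtype libraries, printed in the cell and coloured from blue (lower) to red (higher). Knockout 3 reaches 2.48 for Hmgcs1 and 2.15 for Sqle, wildtype 12 is above the wildtype mean for every member but Aacs, and Scap and Dhcr7 are above 0.5 in all 4 knockouts.

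Saa1 was high in knockouts 3 and 11, while the member median was 0.91 in knockout 3 and 0.26 in knockout 11. G6pc was lowest in knockout 3, at 14.9 FPKM, and next lowest in wildtype 12, at 26.2, the libraries in which the member median was highest. The part of either in the member values was not tested. With wildtype 12 and knockout 3 both left out, the member median was 0.34. In that setting 21 of 24 members (87.5%) had a positive change, against 43.7% of all tested genes. Of the members 3 passed: Scap, Dhcr7 and Hmgcs1. Wildtype 12 and knockout 3 held the highest value of each of these genes in their groups. Leaving them out takes the extreme values out by construction, so these calls lend no support. Without knockouts 3 and 11 the member median was 0.13 and 0 were called. There 18 of 24 members were positive (75%), against 48.2% of all tested genes. Without knockout 3 alone the member median was 0.21.

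Other genes of the pathway were read as 5 lists, chosen by function. Over the lists 3 genes rose and 5 fell. Among all tested genes 14.4% passed in either direction, 2.70% higher and 11.7% lower. Lists of 8 to 23 tested genes are too short to set against those shares. The counts are therefore a description, and the genes named below are single genes, not results of a list. Of 15 genes of the isoprenoid branches, which use farnesyl diphosphate for protein prenylation, dolichol and ubiquinone, 1 rose and 2 fell (median log2 change -0.11). Fnta, the shared subunit of the enzymes that attach farnesyl and geranylgeranyl groups to proteins, went from 15.9 ± 0.55 to 11.8 ± 0.54 FPKM (SD, n = 4) and fell by 0.40 (SE 0.08, limma adjusted p = 0.0105). Rabggtb, a subunit of the transferase that prenylates Rab proteins, was at 37.4 to 41.8 FPKM in wildtype and 20.6 to 28.9 in knockout libraries and fell by 0.59 (limma adjusted p = 0.0108). Zmpste24, a protease of prenylated lamin A, rose from 11.5 ± 1.13 to 15.8 ± 2.07 (0.42, limma adjusted p = 0.0339). The call of Zmpste24 was lost in 9 of 23 alternatives, among them those without wildtype 1, 3 or 10 or knockout 3 or 11, and that of Fnta was lost without knockouts 3 and 11 and without wildtype 12 and knockout 3.

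Of 12 genes that supply acetyl-CoA, NADPH and electrons 0 rose and 1 fell (median 0.15). That gene was Cyb5a, cytochrome b5, an electron donor to the sterol oxygenases and desaturases, which was at 1682 to 2342 FPKM in wildtype and 1149 to 1341 in knockout libraries (-0.71, SE 0.12, limma adjusted p = 0.00802). It did not pass with the length trend taken out. Of 23 genes of SREBP processing and sterol control in the endoplasmic reticulum 0 rose and 1 fell (median 0.09). Sar1b, a GTPase of the COPII vesicles that carry cargo to the Golgi, went from 184.5 ± 9.88 to 135.1 ± 6.58 FPKM (SD, n = 4) and fell by 0.45 (limma adjusted p = 0.00985). Sar1b did not pass with the length trend taken out, with quantile normalization, or without wildtype 12 and knockout 3.

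Of 14 tested genes of fatty acid synthesis, which SREBP1c drives, 2 rose and 1 fell (median 0.07). Fads2, the delta-6 desaturase gene, was at 89.1, 63.4, 85.5 and 95.9 FPKM in wildtype and 175.8, 164.2, 172.6 and 125.5 in knockout libraries and rose by 0.93 (SE 0.15, limma adjusted p = 0.00648). Its groups did not overlap, and knockout 10, low for the cholesterol enzymes, was among the high libraries. Fads1, the delta-5 desaturase gene, rose by 0.45 (limma adjusted p = 0.0344), a call lost in 10 of 23 alternatives, among them those without wildtype 1, 3, 10 or 12 or knockout 3 or 11. Mid1ip1, an activator of acetyl-CoA carboxylase, went from 34.8 ± 6.45 to 18.2 ± 5.11 and fell by 0.92 (limma adjusted p = 0.0192), a call lost in 8 of 23, among them those without wildtype 3, 10 or 12. Srebf1 itself was at 42.1 to 91.1 FPKM in wildtype and 31.1 to 58.0 in knockout libraries (-0.54, SE 0.26, limma adjusted p = 0.193). The last list held LXR targets, genes that oxysterols raise, together with the genes of the LXR receptors themselves. Of its 8 tested genes 0 passed in limma, with a median of -0.07. At an unadjusted limma p under 0.05 there were 0 of the 8, against 3126 of all 10250 tested genes. With 14.4% of all tested genes passing the adjusted threshold, a list of 8 is too short to read a meaning into 0.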

How the data were processed

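The authors deposited 1 table of expression values for 25690 Ensembl genes in 8 liver libraries. Its unit was taken to be FPKM as deposited, from the values, which are not whole, and from Cufflinks, which the submitters' processing notes name. TopHat2 2.1.0, HTSeq, Cufflinks 2.2.1 and the build mm10 stand in those notes with no role. The sources used here name no annotation or strand setting. Count models were not used, since the table holds no counts.

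Names (24807 genes), positions and lengths came from GENCODE M21 on mm10, and promoters from RefSeq (GRCm38.p6). The 10250 genes whose mean reached 1 FPKM were fitted as log2(FPKM + 1) by limma (version 3.58.1, under R 4.3.3). Genotype was the single term and the variance prior followed mean expression. Two-sided p-values had Benjamini-Hochberg adjustment over all fitted genes, with a threshold of 0.05. A change on this scale understates that of low genes. A 0 was kept as a value. The steps were tested on simulated data. Depth came from genes with 1 annotated transcript over 1500 bases, at the FPKM of a single fragment, and is an estimate.

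All 25 members with a row are named, and at most 3 genes per related list, taken in order of adjusted p from those that passed. Srebf1, Syvn1, Sec23b and Sec24d fall outside this rule and were named after their values were seen. Ctsb, Acat3 and 5830462I19Rik are named for their position beside or over a member. Members and lists were chosen with earlier results of these data known. The same-numbered libraries 3 and 10 were not taken as pairs, since the labels give no shared origin. The alternatives changed the pseudocount, low-value filter, scaling, variance model, library weights or threshold, or were removal of each library's trend along transcript length by symmetric loess (span 0.5), a block on the title numbers, and the removal of libraries.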

Additional observations from a re-analysis of the deposited data

Results flagged for a closer look

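Among 60 groups of 4 values examined, those of the 25 members with a row, Foxo1, Saa1, Saa2, S100a8 and G6pc, 6 had a library far from the other 3. Chance gives about 1 in 20, but wildtype 12 and knockout 3 were known to be high for the members, and Saa1, Saa2, S100a8 and G6pc were included because libraries differ in them. The number of such groups is therefore a description only. Wildtype 12 was far above the other wildtype libraries for Hmgcs1 (144.8 FPKM, against 30.6 to 40.2), Sc5d (181.5, against 93.5 to 107.4), Insig1 (138.1, against 73.1 to 76.6) and Saa2 (86.5, against 24.4 to 30.2). It was far below them for G6pc (26.2 FPKM, against 193.9 to 227.9). Knockout 3 was far above the other knockouts for Hmgcs1 (285.8 FPKM, against 54.1 to 93.0).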

How the results depend on the processing

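Over 23 alternatives the member median log2 change stayed positive (0.13 to 0.53), by less than the spread between libraries of a group (SD 0.38) from 0.37. Over all genes 277 were higher and 1195 lower. The numbers were 485 and 720 with median-ratio scaling, 470 and 652 with quantile normalization, 516 and 585 with the length trend taken out, and 78 and 382 without wildtype 12 and knockout 3. The lower number was 653 without knockouts 3 and 11, and the higher number 516 at an adjusted p under 0.1. The share of higher genes, 18.8%, was 40.2%, 41.9% and 46.9% under the 3 scalings. With 1 library left out, 105 to 361 were higher and 598 to 1296 lower, 0 to 7 members rose, and 1 to 6 genes of the related lists rose. The number of members that rose, 2, was 1 with no filter on low values, the length trend taken out or a robust variance model, 0 without knockouts 3 and 11, and 4, with 1 that fell, at an adjusted p under 0.1. For the related lists, 3 up and 5 down, it was 1 up with no filter, 6 up with median-ratio scaling, 5 up with quantile normalization, 6 up and 2 down with the length trend taken out, 1 up and 2 down without wildtype 12 and knockout 3, 3 down without knockouts 3 and 11, and 6 up and 8 down at 0.1. The sign of Tm7sf2 (-0.05) turned with median-ratio scaling (0.059), quantile normalization (0.14), the length trend taken out (0.023) and without wildtype 12 and knockout 3 (0.10), and ran from -0.12 to 0.059 with 1 library left out, positive without wildtype 12. Insig2 turned without wildtype 12 and knockout 3 (0.047), and without knockouts 3 and 11 Stard4 (0.037), Pmvk (-0.22) and Mvk (-0.0028) did. The cause was not tested. With the number in the titles as a replicate block, which pairs only libraries 3 and 10, 1 gene was higher and 1 lower, 0 members and 0 related genes passed in either direction, and Tm7sf2 was 0.043. The same-numbered libraries correlated at -0.0079 and 0.022 across genes, so the numbers were not taken to pair them. The deposited values carry no counting error of their own. The lowest tested member, Srebf2, had a wildtype mean of 5.02 FPKM.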

Other observations

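Among the 23 genes of SREBP processing, 3 were chosen after their values were seen, for a high level in knockout 9. The median of the whole list there was only 0.16 above the wildtype mean, and knockout 9 was the highest knockout library for 40.0% of all tested genes. Syvn1, an endoplasmic reticulum ubiquitin ligase, was at 43.8 FPKM there and at 8.64 to 14.7 in the other 7 libraries. The COPII coat genes Sec23b and Sec24d had 24.4 and 19.1 FPKM in that library, and 11.4 and 10.8 at most elsewhere. The median of the members in knockout 9, 0.31 above the wildtype mean, was between those of knockout 11 (0.26) and knockout 3 (0.91).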
